A study of Mus musculus with 15 samples.

Results

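The 4 Shc adaptor genes (Shc1, Shc2, Shc3 and Shc4) and 4 genes of the proteins that act with them (Grb2, Sos1, Sos2 and Gab1) were followed by bulk RNA-seq in 4T1 cells, a mouse mammary carcinoma line used as a model of triple-negative breast cancer. The 8 genes were taken by symbol from a table of 40402 genes. Shc2 was chosen by its counts, which were high in the untreated library alone, and the other 7 genes were taken as its family and partners. Its levels against untreated cells are therefore given as a description, with no test. All 8 genes were among the 17647 genes with a level of 1 CPM (counts per 1e6 counted reads) or more in at least 1 library, and levels below are CPM after TMM scaling. Shc2 and Shc3 reached 1 CPM in the untreated library only, so they could enter only as genes that are higher there.

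In all, 5 conditions were measured, each in cells of the same line. They were untreated cells and cells given blackberry extract (BLA), blueberry extract (BLU), gold nanoparticles made with blackberry (BLA-A) or gold nanoparticles made with blueberry (BLU-A), with treatment starting 24 h after seeding. Each condition had 3 labelled columns that varied less than separate draws of reads would, with a chi-square per degree of freedom from 0.0951 to 0.475, so their mean was used as 1 library. Library totals ran from 25613778 to 26956442 counts, and 3 counts corresponded to 0.111 to 0.117 CPM. Intervals and floors below cover counting error only, and with 1 library per condition the differences have no replicate check. In bulk RNA, fewer cells that express a gene and less of its RNA per cell cannot be told apart. No group of cells given gold particles without extract was analysed here.

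Shc proteins carry a phosphotyrosine-binding domain and an SH2 domain, with which they dock on activated growth factor receptors. Once phosphorylated, they recruit the adaptor Grb2, which brings the exchange factor Sos to the membrane, where Sos loads Ras with GTP and so starts the Raf, MEK and ERK kinase cascade. Shc1 is expressed in most tissues, whereas Shc2 and Shc3 are known mainly from the nervous system and Shc4 from muscle, brain and melanoma. Gab1 is a docking protein bound by Grb2 that recruits PI3K and the phosphatase Shp2.

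Shc2 and Shc1, the Shc genes with the highest level per kb in untreated and in treated cells respectively, are shown by the bases around their start sites. Each is a RefSeq window of 300 bases, from 250 before to 50 after the annotated start, written 5′ to 3′ along the gene. Of the 2 windows listed for Shc1, only the first is shown and described. The table is of the GRCm38.p6 build, and each window was found once, base for base, on GRCm39 at chr10:79473703-79474002 (minus strand) for Shc2 and chr3:89325608-89325907 (plus strand) for Shc1. Capitals mark each CG dinucleotide, the site of DNA methylation in mammals.
Shc2: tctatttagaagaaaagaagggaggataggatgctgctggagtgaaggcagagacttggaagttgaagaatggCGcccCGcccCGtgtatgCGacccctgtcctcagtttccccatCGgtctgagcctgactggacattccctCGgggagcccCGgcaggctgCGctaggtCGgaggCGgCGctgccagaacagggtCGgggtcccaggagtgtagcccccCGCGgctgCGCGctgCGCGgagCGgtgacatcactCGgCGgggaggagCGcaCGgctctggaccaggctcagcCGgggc
Shc1: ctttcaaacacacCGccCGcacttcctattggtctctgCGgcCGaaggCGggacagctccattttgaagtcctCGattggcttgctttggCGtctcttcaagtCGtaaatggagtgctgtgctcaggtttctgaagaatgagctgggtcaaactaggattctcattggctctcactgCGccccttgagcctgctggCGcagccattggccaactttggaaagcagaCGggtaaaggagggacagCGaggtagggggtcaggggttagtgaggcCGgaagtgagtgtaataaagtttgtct
The Shc2 window holds 24 CG and the Shc1 window 13. The median over 32851 windows is 7, and 20.0% of them hold at least as many as Shc2 and 37.9% at least as many as Shc1. Neither window holds TATAAA on either strand, a motif present in 13.6% of all windows. Windows were listed for 7 of the 8 genes, and Shc3 had none. Methylation was not measured.

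Shc2, also called ShcB, lies on the minus strand of chromosome 10 from 79453760 to 79473769 of GRCm39. The 3 columns of untreated cells held 35159, 35136 and 35213 counts. Those of BLA held 0, 1 and 1 counts, those of BLU 4, 4 and 2, and every column of BLA-A and BLU-A held 0. The untreated library was thus far above the other 4, which did not stand apart from each other beyond counting error. In normalized units the level was 1320 CPM in untreated cells (95% Poisson interval 1306 to 1333). It was 0.0367 CPM with BLA and 0.109 CPM in BLU. The ratio of untreated to treated cells was 35960 for BLA (95% interval 6453 to 1420000) and 12120 for BLU (4145 to 58750). Against a floor of 3 counts per library, Shc2 was at least 10200-fold lower in BLA-A and at least 11650-fold lower in BLU-A.

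Shc2 was the gene with rank 41 of 17647 by CPM in untreated cells and took 0.136% of all counts there. Per kb of gene span it had rank 110 of 16394 genes with a known span, at 65.95 CPM per kb. Levels are compared between genes per kb of span because reads were counted over whole genes, introns included. No other member came near this level. Next among the 8 genes in untreated cells were Shc1 at 8.68, Grb2 at 2.32 and Sos1 at 1.89 CPM per kb. Sos2 at 0.89, Shc4 at 0.84, Gab1 at 0.0959 and Shc3 at 0.0146 CPM per kb followed.

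**Figure D1:**
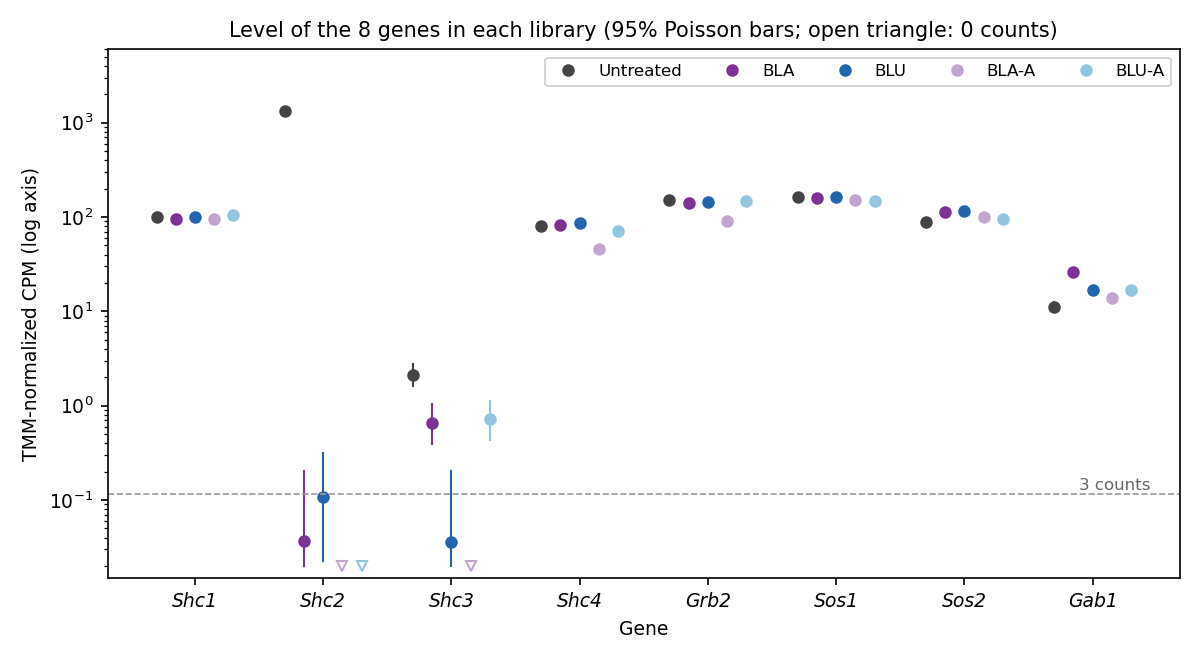
TMM-normalized CPM (log axis) of the 8 genes in the 5 libraries, with 95% Poisson bars that are mostly narrower than the points. Open triangles mark 0 counts, drawn at the foot of the axis, and the dashed line marks 3 counts. Shc2 is at 1320 CPM in untreated cells and at most 0.109 CPM in treated cells, while Shc1, Grb2, Sos1 and Sos2 stay between 88.2 and 164.1 CPM in all libraries.

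Shc1, the family member with the p46, p52 and p66 isoforms, had close to the same level in all 5 libraries after TMM scaling. It lies on the plus strand of chromosome 3 from 89325750 to 89337336. Its counts were 2679 in untreated cells, 2625 with BLA, 2774 with BLU, 2215 with BLA-A and 2803 with BLU-A. The levels ordered as BLU-A (105.8 CPM), BLU (100.7), untreated (100.5), BLA (96.4) and BLA-A (95.55). No neighbours in this order were separated beyond counting error. With this scaling no treatment was separated from untreated cells either, with ratios from 0.951 to 1.05. The log2 fold changes against untreated cells ran from -0.07 to 0.07. With scaling by total counts the value for BLA-A moved to -0.26, so the level of Shc1 there depends on the scaling.

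Shc3, or ShcC, had the lowest level of the members in untreated cells and lies on the minus strand of chromosome 13 from 51577429 to 51723523. Its count was 57 in untreated cells (95% interval 43.2 to 73.9), 18 with BLA (10.7 to 28.5), 1 with BLU (0.0253 to 5.57), 0 with BLA-A and 19 with BLU-A (11.4 to 29.7). All 4 treated libraries lay below the interval of the untreated one, and BLA and BLU-A lay above BLU and BLA-A. The ratio of untreated to treated cells was 3.24 with BLA (1.88 to 5.85), 58.9 with BLU (10.2 to 2367) and 2.98 with BLU-A (1.75 to 5.31), and Shc3 was at least 16.5-fold lower in BLA-A. Since Shc3 passed the filter on low counts through the untreated library alone, a lower level in the other 4 was built into the selection.

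Shc4, or ShcD, lies on the minus strand of chromosome 2 from 125469363 to 125566129. Its counts were 2165 in untreated cells, 2238 with BLA, 2389 with BLU, 1065 with BLA-A and 1890 with BLU-A. BLA-A was the low library, at 45.9 CPM against 71.3 to 86.7 CPM in the other 4, and the log2 fold change against untreated cells was -0.82 (-1.01 with scaling by total counts in place of TMM). BLU-A was also below untreated cells beyond counting error, with a ratio of 1.14. BLA was not separated from BLU or from untreated cells, whereas BLU was above untreated cells by a ratio of 1.07 (95% interval 1.01 to 1.13).

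Reads of Shc4 cannot be told apart from those of Eid1, an inhibitor of the coactivators p300 and CBP that lies inside Shc4 on the opposite strand and overlaps it over 1691 bases. The mates of each read pair were counted as single reads by strand, and a fragment then gives reads on both strands. Eid1 had 1843 counts in untreated cells, 1752 with BLA, 1805 with BLU, 851 with BLA-A and 1461 with BLU-A. The ratio of Shc4 to Eid1 counts stayed between 1.17 and 1.32, and both counts were lowest in BLA-A. Since the reads cannot be told apart, these counts do not show whether each gene by itself was lowest there. The part of Eid1 in the Shc4 counts was not tested.

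**Figure D2:**
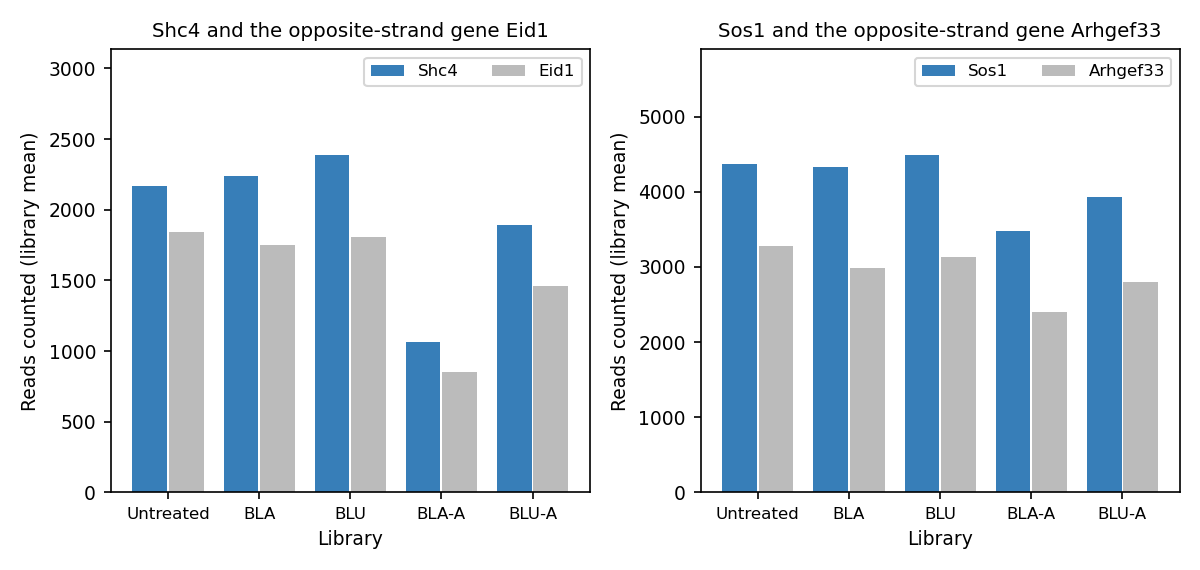
Reads counted on Shc4 and Eid1 (left) and on Sos1 and Arhgef33 (right) in the 5 libraries, as the mean of the 3 columns of each, with the count axes from 0. In each pair the genes overlap on opposite strands, and both counts of the Shc4 pair are lowest in BLA-A, at 1065 and 851.

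The makeup of the Shc family per kb of span differed between untreated and treated cells as the choice of Shc2 implies. Shc2 made up 87.4% of the summed level in untreated cells, with Shc1 at 11.5%, Shc4 at 1.11% and Shc3 at 0.0194%. Shc1 made up 90.7% with BLA, 90.6% with BLU, 94.6% with BLA-A and 92.5% with BLU-A, and Shc4 took 5.44% to 9.34%. The share of Shc4 may hold reads of Eid1. The sum of the 4 genes was 75.5 CPM per kb in untreated cells and 8.72 to 9.87 in treated cells. Without Shc2 the sum was 9.53 CPM per kb in untreated cells, 9.17 with BLA, 9.58 with BLU, 8.72 with BLA-A and 9.87 with BLU-A. The other 3 genes together were therefore at 0.915 to 1.04 times their untreated level.

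**Figure D3:**
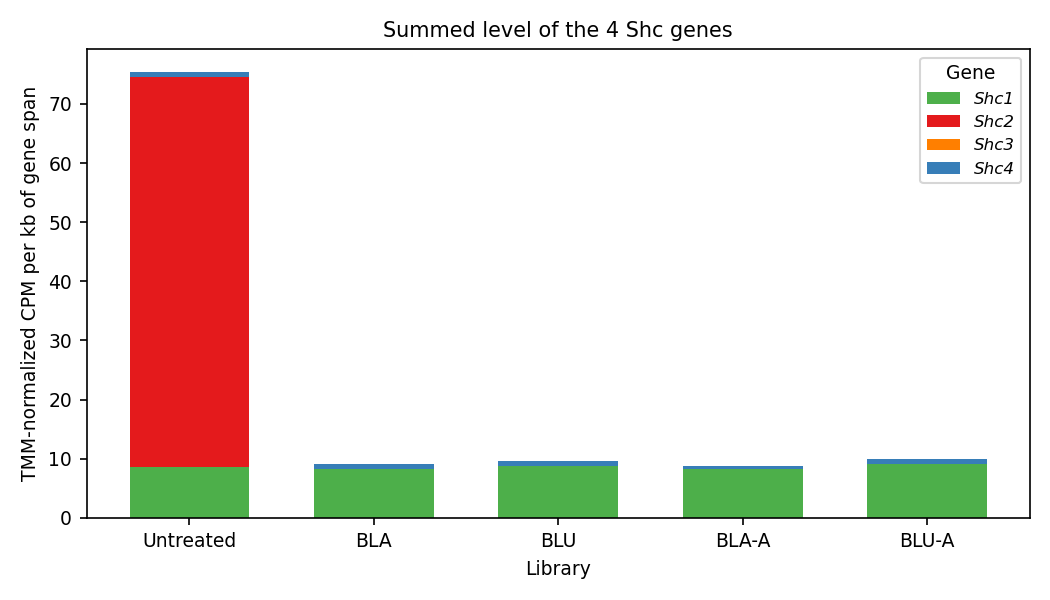
Stacked bars of the TMM-normalized CPM per kb of gene span for the 4 Shc genes in each library, on an axis from 0. The untreated bar reaches 75.5, mostly Shc2, and the 4 treated bars reach 8.72 to 9.87, mostly Shc1.

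Grb2, the adaptor that links phosphorylated Shc to Sos, lies on the minus strand of chromosome 11 from 115534871 to 115600161. Its counts were 4035 in untreated cells, 3800 with BLA, 3932 with BLU, 2108 with BLA-A and 3915 with BLU-A. BLA-A stood below the other 4 libraries, at 90.9 CPM against 139.5 to 151.4 CPM. No neighbours in the order of those 4 were separated beyond counting error, but BLA and BLU were below untreated cells, at ratios of 0.921 (0.881 to 0.963) and 0.942 (0.902 to 0.986). BLA exceeded BLA-A by a ratio of 1.53. The log2 fold change was -0.73 with BLA-A (-0.92 with scaling by total counts) and -0.12 to -0.04 in the other treatments.

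Sos1, the principal Ras exchange factor of the pathway, had 4374 counts in untreated cells, 4335 with BLA, 4493 with BLU, 3474 with BLA-A and 3937 with BLU-A. It lies on the minus strand of chromosome 17 from 80701180 to 80787897. The levels ran from 148.5 CPM in BLU-A to 164.1 CPM in untreated cells, and both nanoparticle libraries lay below the other 3. The log2 fold changes were -0.04, -0.01, -0.13 and -0.14 for BLA, BLU, BLA-A and BLU-A. With scaling by total counts the value for BLA-A was -0.32. Arhgef33, on the opposite strand, overlaps Sos1 over 6331 bases, and its counts were 2394 with BLA-A and 2796 to 3278 in the other libraries. The ratio of Sos1 to Arhgef33 counts was 1.33 to 1.45, and the share of reads from either gene was not tested.

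Sos2, the second Sos gene, lies on the minus strand of chromosome 12 from 69630098 to 69729162. Its counts were 2350 in untreated cells, 3088 with BLA, 3172 with BLU, 2293 with BLA-A and 2526 with BLU-A. The untreated library had the lowest level, 88.2 CPM, and the extracts had the highest, 113.4 CPM with BLA and 115.1 CPM in BLU. The nanoparticle libraries lay between them at 98.9 and 95.3 CPM. The log2 fold changes were 0.36, 0.38, 0.16 and 0.11 for BLA, BLU, BLA-A and BLU-A.

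Gab1 lies on the minus strand of chromosome 8 from 81491061 to 81607279 and was the member with the highest fold change in any treatment. It had 297 counts in untreated cells (95% interval 264.2 to 332.8), 718 with BLA (666.4 to 772.5), 461 with BLU (419.9 to 505.1), 324 with BLA-A (289.7 to 361.3) and 444 with BLU-A (403.7 to 487.3). BLA was above all other libraries, BLU and BLU-A were not separated beyond counting error, and untreated cells were lowest. The level was 11.1 CPM in untreated cells and 26.4 CPM in BLA, a log2 fold change of 1.21. The log2 fold changes in the other treatments were 0.57 with BLU, 0.31 with BLA-A and 0.57 with BLU-A. Gm51580, an antisense lncRNA within Gab1, had 6 counts in untreated cells and 7 to 26 in treated cells.

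Sos2 and Gab1 were higher in all 4 treatments, except that Sos2 with BLA-A was at -0.03 when scaled by total counts, and both are long genes of 99.1 and 116 kb. Among genes with a mean of at least 10 CPM, the 3171 genes of at least 50 kb had a median log2 fold change of 0.27 with BLA, 0.24 with BLU, 0.11 with BLA-A and 0.12 with BLU-A. The 6334 shorter genes had medians of -0.16, -0.13, 0.08 and -0.05. Gab1 lay above the median of the long genes in each treatment. Sos2 lay nearer to it, at 0.36, 0.38, 0.16 and 0.11 for BLA, BLU, BLA-A and BLU-A, and was just below it in BLU-A. Grb2, Sos1 and Shc4 are also over 50 kb long, and their fold changes ran below those medians. The part of gene length in these values was not tested.

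A log2 fold change over 1 in size, on CPM plus 0.5, was met by 3 of the 8 genes in BLA (Gab1 higher, Shc2 and Shc3 lower). In BLU, BLA-A and BLU-A it was met by Shc2 and Shc3, both lower. With 2 CPM added in place of 0.5, Shc3 was at -0.64 with BLA and -0.61 with BLU-A and no longer met it there. Over all genes tested, 7.92% were higher and 8.54% lower in BLA, and 5.66% were higher and 4.64% lower in BLU. In BLA-A 8.54% were higher and 12.4% lower, and in BLU-A 3.35% were higher and 4.5% lower. Nothing is read from the members' counts beside these shares, since Shc2 was chosen on the same contrast. Of the 4 partners, Gab1 with BLA was the only one past the threshold, in a treatment where 7.92% of genes were past it upward. The median fold change of the 7 genes other than Shc2 was -0.04 with BLA, 0.00 with BLU, -0.13 with BLA-A and -0.04 with BLU-A, and that of all genes was -0.01 to 0.00. The median size of their fold changes was 0.12, 0.09, 0.31 and 0.14, against 0.41, 0.33, 0.49 and 0.24 for all genes. All genes here include those near the filter of 1 CPM, and genes matched for level were not compared.

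**Figure D4:**
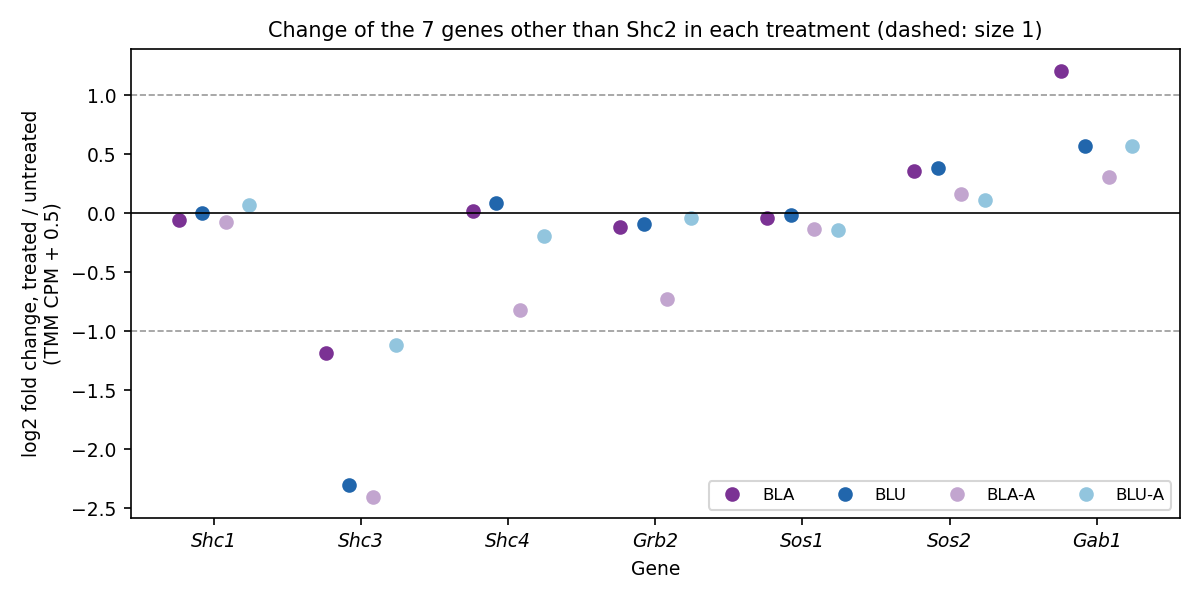
Log2 fold change relative to untreated cells (TMM-normalized CPM with 0.5 added) of the 7 genes other than Shc2 in the 4 treatments, each point being 1 library against the untreated one. The dashed lines mark a size of 1, which Shc3 passes downward in all treatments and Gab1 upward in BLA at 1.21, while Shc4 and Grb2 reach -0.82 and -0.73 with BLA-A.

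When the 4 treated libraries were compared together with the untreated one, 4 of the 17647 genes (0.0227%) had an adjusted p under 0.05 by edgeR's quasi-likelihood test, and 481 genes had an unadjusted p under 0.05. No test of Shc2 is given, since it was chosen on this contrast. None of the 7 other members was called, with a lowest unadjusted p of 0.137 for Gab1 (log2 fold change 0.73, SE 0.44, adjusted p = 0.999, higher in 4 of 4 treated libraries). Sos2 had a log2 fold change of 0.26 (SE 0.25), also higher in 4 of 4 with TMM scaling, and Grb2 one of -0.22 (SE 0.31), lower in 4 of 4. The untreated condition had 1 library, so the test takes its spread from the 4 treatments alone. Without the BLA-A library 45 genes were called, none of them one of these 7 members, and the adjusted p of Gab1 was 0.396.

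The form of the treatment and the plant were compared within the 4 treated libraries, apart from the contrast with untreated cells on which Shc2 was chosen. Nanoparticles against extracts gave an adjusted p under 0.05 for 2 genes of all those tested (0.0113%) and for none of the 8 members. Shc4 was the member nearest to the threshold, lower with nanoparticles in both plants, with a log2 fold change of -0.56 (SE 0.29, unadjusted p = 0.0863, adjusted p = 0.790). Its counts may hold reads of Eid1, as described above. Gab1 followed at -0.46 (SE 0.38, adjusted p = 0.814) and Grb2 at -0.28 (SE 0.29, adjusted p = 0.842). Unlike Shc4, these 2 genes were lower with nanoparticles in blackberry only. In blueberry, Gab1 was at 16.73 CPM with BLU and 16.75 CPM with BLU-A, and Grb2 at 142.7 and 147.7 CPM. Shc1 and Sos1 were at 0.03 (SE 0.27) and -0.11 (SE 0.26). Blackberry against blueberry gave 7 genes (0.0397%) and no member, with a lowest adjusted p of 0.990 among the 8. Grb2 and Shc4 were at -0.37 (SE 0.29) and -0.36 (SE 0.29). A difference of the nanoparticle effect between plants could not be tested with 1 library per combination.

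Across the 4 treated libraries, the spread differed from member to member. The highest and lowest treated libraries differed by 0.13 on the log2 scale for Sos1, 0.15 for Shc1, 0.27 for Sos2 and 0.28 for Shc2, whose treated values are set mostly by the 0.5 CPM added. They differed by 0.70 for Grb2, 0.89 for Gab1, 0.91 for Shc4 and 1.28 for Shc3. The median of this range was 0.86 over all genes tested and 0.63 over those with a mean of at least 10 CPM.

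The genes around Shc2 are given as a description. Shc2 was chosen for its level in untreated cells, and the highest of these genes there, Plpp2, was at 90.6 CPM. A fall as large as that of Shc2 was therefore not open to them. Of 15 genes of the table within 100 kb, 9 passed the filter on low counts, and none of these passed the fold threshold of 1 (log2) throughout the 4 treatments, which 1.7% of all genes tested did. A list of 9 genes is too short to be set apart from that share. Of the 9, 5 were past the threshold in at least 1 treatment, as were 35.3% of all genes tested. Mier2, a transcriptional regulator that starts 82.7 kb downstream of the Shc2 start, had 788 counts in untreated cells and 652 to 1085 in treated cells. Plpp2, a lipid phosphatase gene, had 2415 counts in untreated cells and 1608 to 2211 in treated cells. On the other side, Bsg, which encodes basigin, had 5390 counts in BLA-A and 1462 to 1974 elsewhere, and Tpgs1 had 262 counts in untreated cells and 133 to 185 in treated cells. Plpp2 and Tpgs1 were lower in all 4 treatments, with log2 fold changes down to -0.61 and -0.90, and the rest of the 9 were not.

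Cimap1d, the nearest gene upstream with a gap of 1.57 kb, was counted almost only in BLU. It had 616 counts in BLU, 1 with BLA-A and 0 in untreated cells, BLA and BLU-A. C2cd4c, the nearest gene downstream with a gap of 3.73 kb, had 5 counts or fewer in each library, untreated cells included, where Shc2 had 35169. Spmap2 and Gm51808 lie 30.6 and 27.5 kb away. Spmap2 had 14 counts in untreated cells, 4 with BLU-A and 0 elsewhere, and Gm51808 had 9 in untreated cells and 0 in the 4 treated libraries.

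**Figure D5:**
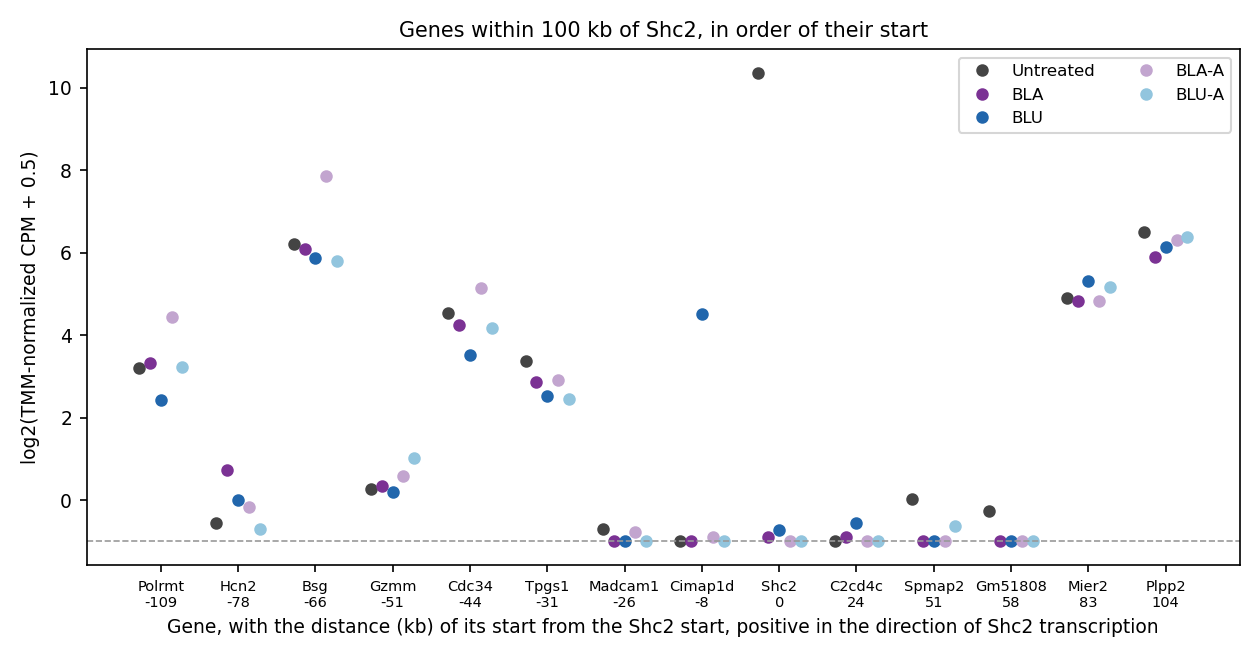
Log2(TMM-normalized CPM + 0.5) of genes within 100 kb of Shc2 in the 5 libraries, in order of their start and labelled with its distance in kb from the Shc2 start. The dashed line is 0 counts, and genes under 0.1 CPM in every library are not drawn. Shc2 is high in untreated cells alone and Cimap1d in BLU alone, whereas Mier2 and Plpp2 are present in all libraries.

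The 5 genes most like Shc2 were those with the smallest Euclidean distance between log2(CPM + 0.5) values, centred on their mean over the 5 libraries. This is a description, since it uses the values that Shc2 was chosen on. Gm36303, an uncharacterised gene on chromosome 5, had a distance of 3.58, with 2201 counts in untreated cells and 0, 2, 1 and 1 for BLA, BLU, BLA-A and BLU-A. Slc9a2, a sodium and proton exchanger on chromosome 1, was at 3.63, with 17513 counts in untreated cells and 71 to 121 in treated cells. Pik3cg, the catalytic subunit p110γ of PI3K on chromosome 12, was at 6.19, with 403 counts in untreated cells and 1, 27, 0 and 4 in the treatments. Gm46392 was at 6.38, with 344 counts in untreated cells and 0 to 23 in treated cells, and Ptprz1, a receptor tyrosine phosphatase, was at 6.55, with 1831 counts and 78 to 130. The median distance over all genes was 10.1. The other Shc genes were at 8.61 (Shc3), 9.90 (Shc4) and 10.1 (Shc1). None of the 5 genes lies on chromosome 10.

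In 8 lists of pathway genes around the Shc complex there were 111 genes, of which 100 were tested. None had an adjusted p under 0.05 for the 4 treated libraries against the untreated one, and the lowest adjusted p was 0.999. Past a log2 fold change of 1 there were 5 higher and 8 lower in BLA, 1 and 7 with BLU, 7 and 13 with BLA-A, and 2 and 8 with BLU-A. These are 5.0%, 1.0%, 7.0% and 2.0% higher and 8.0%, 7.0%, 13.0% and 8.0% lower, while the shares of all genes are those given above. The list medians over the 100 genes were 0.07, 0.05, 0.16 and 0.03.

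Receptor tyrosine kinases, the receptors that Shc docks on, had 6, 2, 6 and 5 of 25 tested genes lower for BLA, BLU, BLA-A and BLU-A, and 3 higher in BLA-A alone. The lower genes were 24.0%, 8.0%, 24.0% and 20.0% of the list, beside 8.54%, 4.64%, 12.4% and 4.5% of all genes. The 3 higher in BLA-A were 12.0%, beside 8.54% of all genes. The genes lower in at least 2 treatments were Erbb4, Pdgfrb, Alk, Ntrk2, Ntrk3 and Ros1. They had low counts at the outset, from 38 (Pdgfrb) to 397 (Alk) in untreated cells. Ros1 reached 1 CPM in untreated cells only, so its lower level in the treatments was built into the selection. Alk, a receptor of the insulin receptor superfamily, had 187, 233, 99 and 169 counts for BLA, BLU, BLA-A and BLU-A, with log2 fold changes of -1.06, -0.78, -1.69 and -1.16. Ntrk3, the receptor of neurotrophin 3, had 114 counts in untreated cells and 8, 39, 18 and 72 in the treatments. Erbb4, a neuregulin receptor, had 126 counts in untreated cells and 10, 70, 19 and 62 in the treatments. The list medians were -0.11, -0.18, 0.09 and -0.20.

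Among other docking and SH2 adaptors, 2, 1, 1 and 1 of 29 genes were higher and 1, 3, 3 and 2 lower for BLA, BLU, BLA-A and BLU-A. The higher genes were 6.9%, 3.4%, 3.4% and 3.4% of the list, beside 7.92%, 5.66%, 8.54% and 3.35% of all genes. The lower ones were 3.4%, 10.3%, 10.3% and 6.9%, beside 8.54%, 4.64%, 12.4% and 4.5% of all genes. Gab3, a relative of Gab1, had 108 counts in untreated cells, 559 with BLA, 479 with BLU, 108 with BLA-A and 264 with BLU-A. It was thus higher with both extracts and with BLU-A, with log2 fold changes of 2.21, 1.97 and 1.20, and at 0.18 with BLA-A. Dok5, an adaptor of receptor kinases, had 49 counts in untreated cells and 0, 14, 4 and 15 in the treatments. Dok7, an activator of the muscle receptor MuSK, had 50 counts and then 4 to 20. Dok5 and Dok7 reached 1 CPM in untreated cells only, so their lower level in the treatments was built into the selection. Grap2, a Grb2-related adaptor of T cells, had 41 counts in untreated cells and 21, 1, 2 and 34 in the treatments.

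Other exchange factors for GTPases of the Ras family had 1, 2, 4 and 1 of 7 genes lower and 1 higher, in BLU-A. The lower genes were 14.3%, 28.6%, 57.1% and 14.3% of the list, beside 8.54%, 4.64%, 12.4% and 4.5% of all genes. The higher gene was 14.3% of the list, beside 3.35% of all genes in BLU-A. With a list this short, nothing is read from these counts. Rasgrp3 had 48 counts in untreated cells and 54, 12, 4 and 16 for BLA, BLU, BLA-A and BLU-A, and Plce1 had 103 and then 45, 101, 35 and 78. Rasgrf1 went in opposite directions, with 30 counts in untreated cells, 33 with BLA, 3 with BLU, 0 with BLA-A and 79 with BLU-A.

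The lists of downstream steps held at most 1 gene past the threshold in any treatment. Of all genes, 7.92% were higher in BLA and 8.54% in BLA-A. With lists this short, nothing is read from these counts. Of the 6 Ras GTPases, 1 (16.7%) was higher, in BLA-A. Nras had 143.1 CPM in untreated cells and 101.7 to 170.9 CPM in treated cells. Of 9 genes in a list of Ras GTPase-activating proteins and Spred inhibitors, 1 (11.1%) was higher in BLA, and the list medians were 0.51, 0.41, 0.32 and 0.36. In this list Spred2, an inhibitor of Raf activation, had 252.9 CPM in untreated cells and 392.9, 338.6, 350.5 and 328.0 CPM for BLA, BLU, BLA-A and BLU-A, and Rasa1, the p120 RasGAP, had 339.7 CPM and then 340.0, 387.1, 243.3 and 361.2. Of 11 Raf, MEK and ERK genes, 1 was higher in BLA and 1 with BLA-A (9.09% each). Ppp1cb, a phosphatase subunit that acts on Raf, had 209.8 CPM in untreated cells and 188.1 to 207.3 CPM in treated cells.

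Of 7 phosphatases that act on the complex, 1 was higher in BLA and 1 with BLA-A (14.3% each, beside 7.92% and 8.54% of all genes). Ptpn11, which encodes Shp2, the phosphatase bound by Gab1, had 267.0 CPM in untreated cells and 229.5, 232.6, 150.8 and 250.1 CPM for BLA, BLU, BLA-A and BLU-A, a log2 fold change of -0.82 with BLA-A. Ptpn11 was thus lowest in the same library as Grb2 and the Shc4 counts, which may hold reads of Eid1. Ptpn12, the PEST phosphatase known to bind Shc, had 105.5 CPM in untreated cells and 125.8 to 169.8 CPM in treated cells. None of the 6 PI3K genes on this list, which holds class IA subunits and leaves out Pik3cg (described above), was past the threshold. Pik3ca had 187.3 CPM in untreated cells and 144.0 to 217.4 CPM in treated cells, and Pik3cb had 58.9 and 70.8 to 82.0 CPM.

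Since Shc2 and Shc3 are known from neurons, markers of other cell types were read in the same libraries. Epithelial markers had 6 of 8 genes at 1 CPM or more in every library and a summed level of 955.9 to 1722 CPM, with Krt18 at 451.2 to 688.9 CPM and Krt5 at 0. The basal keratin Krt14 stayed under 1 CPM. Neuronal and glial markers summed to 89.1 CPM in untreated cells and 78.6 to 116.3 CPM in treated cells, nearly all of it Map2 and Mbp. Nefl was at 0 in all libraries, and Tubb3, Snap25, Syp, Gfap and Olig2 were under 1 CPM. Rbfox3 was at 5.85 CPM in untreated cells and 0.561 to 6.41 CPM in treated cells. Syt1, which encodes a calcium sensor of synaptic vesicles, had its highest level in the untreated library as Shc2 did, 4.35 CPM, and 0.918, 2.58, 0.561 and 3.06 CPM for BLA, BLU, BLA-A and BLU-A. Fibroblast markers summed to 3.83 CPM in untreated cells and 1.40 to 2.21 CPM in treated cells. Leukocyte markers summed to 11.2 and 9.24 to 10.6 CPM, most of it Cd68, and endothelial markers to 8.63 and 3.93 to 8.82 CPM. The list sums of fibroblast and leukocyte markers were thus highest in untreated cells, and those of the other lists were highest in a treated library. Single markers went both ways. Ptprc and Adgre1 were highest in untreated cells, whereas Cd68 was at 7.35 CPM there and 8.81 CPM in BLA. Map2, Mbp and Rbfox3, of the same list as Syt1, were highest in a treated library. The part of other cell types in the Shc2 level was not tested.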

How the data were processed

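RNA of 4T1 cells was sequenced after removal of ribosomal RNA. The authors deposited raw counts per gene, without normalization. Per the study's methods, paired reads were aligned as single reads to GRCm39 with STAR and counted by strand on whole genes in OmicsBox, and the submitters' processing notes also name DESeq2 1.36.0. Reads of overlapping genes on opposite strands cannot be told apart. The 15 columns gave 5 libraries. The study describes its replicates as biological, its sequencing report lists the read files of each condition as subsets of a single sample, and the columns varied less than separate draws of reads would. P-values thus measure only the spread between these libraries, which may be technical.

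Genes that reached 1 CPM in 1 library or more were kept. Counts were normalized by TMM, and log2 fold changes used CPM plus 0.5. The other deposited tables hold the authors' own comparisons (fold changes and p-values of a differential test, and gene set enrichment scores) and were not used. Tests used edgeR 4.0.16 (quasi-likelihood, Benjamini-Hochberg at 0.05) in R 4.3.3, with DESeq2 1.42.0 as an alternative, and were tested on simulated data. The comparisons within treated libraries used an additive model of plant and form, with 1 residual degree of freedom. Fold changes of a single treatment have no test. Intervals are exact Poisson or exact conditional binomial at 95%. Gene positions are those of GENCODE release M39 (GRCm39). Promoter windows came from RefSeq. Python 3.11.15, numpy 2.4.6, pandas 2.3.3 and scipy 1.17.1 were used. Alternatives covered normalization, filters, pseudocount, columns and libraries left out, the test and the length measure.

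The members and lists were chosen with earlier results of these data known. Pathway genes were named when past the threshold in at least 2 treatments in the same direction, and otherwise as the 2 with the highest mean CPM of a list. The 5 genes nearest to Shc2, genes that overlap a member and genes within 100 kb of Shc2 were also named. Some genes that this rule names are not reported here.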

Additional observations from a re-analysis of the deposited data

Results flagged for a closer look

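Grb2 with BLA-A, at 90.94 CPM, lay apart from the other 3 treated libraries (139.5, 142.7 and 147.7 CPM). The gap to its nearest neighbour was 0.882 of the whole range on the log2 scale, above Dixon's 95% critical value for 4 samples. The 8 members were each tested for this over the 4 treated libraries, and chance flags about 1 in 20 groups. The 4 libraries are 4 different treatments, not replicates of 1 condition.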

How the results depend on the processing

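Over 224 recomputed log2 fold changes of the members, the sign turned in 5, all for main values of at most 0.165 in size. The threshold of 1 was crossed in 3: Shc4 with BLA-A reached -1.01 with scaling by total counts, and a pseudocount of 2 CPM gave -0.64 for Shc3 with BLA and -0.61 with BLU-A, which left 1 member past the threshold in BLU-A. With at least 1 CPM in every library 6 members were left, and 1 of them was past the threshold in BLA (Gab1) and 0 in the others. None of the 7 members other than Shc2 was called in any edgeR fit of the 3 comparisons over the libraries, with a lowest adjusted p of 0.396 (Gab1, without the BLA-A library). The labels number the columns 1 to 3, but same-numbered columns did not deviate together (mean correlation -0.00267 over 30 pairs, 0 over 0.1), so they share only a number. With the 15 columns as separate samples, 14181 genes were called for treated against untreated cells, 14866 for nanoparticles against extracts and 14610 for blackberry against blueberry, and 2965 and 2627 were past the fold threshold in BLU and BLU-A. With the replicate block these were 14182, 14865, 14610, 2964 and 2625, and 1 member, Shc3, was past it in each of BLU, BLA-A and BLU-A, because the blocked fit did not converge for Shc2 (F from -146000 to -136000). These fits take the columns as replicates, although the columns varied less than separate draws of reads would.

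Counts of all genes called depended on the settings. For nanoparticles against extracts they were 118 with scaling by total counts, 5 with DESeq2 size factors, 184 with no filter, 0 with at least 1 CPM in every library, 22 with DESeq2's Wald test and 2 to 5 with a column of each condition left out. For blackberry against blueberry they were 90 with scaling by total counts, 108 with no filter, 0 with at least 1 CPM in every library and 11 with DESeq2. For treated against untreated cells they were 2 with at least 1 CPM in every library, 17 with DESeq2 and 45 without the BLA-A library. The genes past the fold threshold with at least 1 CPM in every library were 1089 with BLA, 567 with BLU, 1830 with BLA-A and 275 with BLU-A. They were 942, 400, 1859 and 208 with a pseudocount of 2 CPM, and 0.1 CPM gave 2742 for BLU and 2366 for BLU-A. The causes were not tested. Per kb of total exon length in place of span, Shc2 took 89.58% of the Shc family in untreated cells, Shc1 7.088%, Shc4 3.273% and Shc3 0.06407%. Shc1 then took 67.09%, 66.97%, 78.45% and 72.04% for BLA, BLU, BLA-A and BLU-A, Shc4 32.69%, 32.95%, 21.55% and 27.75%, and Shc3 0.1955% with BLA and 0.2074% with BLU-A.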
